A study of Mus musculus with 6 samples.

Results

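The genes described here are 8 genes that mark neurons making gamma-aminobutyric acid (GABA) and the classes of interneuron: Gad1, Gad2, Slc32a1, Lhx6, Pvalb, Calb2, Reln and Htr3a. The rule names the genes and uses no measured value, and every probe set of the array annotated to one of these genes alone was taken. That gave 10 probe sets of the 12488 on the array, or 8 genes of the 8251 that a probe set names alone. The 6 samples are total RNA of mouse hippocampus, 1 array each, from a study titled as one of mice overexpressing HuD, an RNA-binding protein of neurons. No label gives the genotype, strain, age or sex of any sample, the promoter of a transgene, or whether animals were pooled. The samples therefore stand in no group: each is named by the number in its title, values are given sample by sample, and no test between samples was possible.

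GABA is the main inhibitory transmitter of the adult forebrain. It is made from glutamate by the glutamate decarboxylases GAD67 (Gad1) and GAD65 (Gad2), and is loaded into synaptic vesicles by the transporter VGAT (Slc32a1). In the hippocampus these genes are known from interneurons scattered among the far more numerous glutamatergic cells. Interneuron classes are told apart by where they arise and what they carry: the transcription factor Lhx6 in cells from the medial ganglionic eminence, the calcium-binding protein parvalbumin in fast-spiking basket and axo-axonic cells, and the serotonin receptor subunit Htr3a in a class that largely arises from the caudal eminence. Calretinin (Calb2) and reelin (Reln) mark further classes, and neither is exclusive to interneurons, since mouse mossy cells make calretinin and Cajal-Retzius cells make both.

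The deposited values are signal intensities. Array medians lay between 59.9 and 63.3. After division by the array median and log2, a level of 0 is that median. A gene is called expressed here if the middle of its 6 values is above 0, as it was for 4838 genes. The range of a gene is its highest minus its lowest log2 value. Neurod6 and Neurod2, transcription factors of excitatory forebrain neurons, had signals above the array median in 6 of 6 samples. They mark such neurons of the forebrain in general, so they cannot settle the hippocampal label. Prox1, a dentate granule cell factor, had a median under the array median and lay above it in 2 of 6 samples. Measurement error could be gauged only from genes with more than 1 expressed probe set, a yardstick added after the values were seen. In 705 such genes the difference between the 2 strongest probe sets varied over the 6 samples with a median range of 0.56 (quartiles 0.39 and 0.81), and the median Pearson correlation between them was 0.17. A difference holds the error of both probe sets and was not matched for level, so it is only a rough guide to the error of 1 probe set. Ranges of that size in a single probe set were not shown to stand out from such disagreement.

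All 8 genes were expressed by this rule, and 6 of them lay above the array median in every sample. Gad2 did so in 5 samples and Lhx6 in 4. Their ranges ran from 0.21 for Gad1 to 1.02 for Gad2, with a median of 0.64, against 0.40 over all expressed genes. A range over 1, that is, a highest sample more than 2 times the lowest, was seen in 1 of the 8 genes (12.5%), against 4.13% of all expressed genes. The share of the 8 rests on a single gene, Gad2. The ranges of 6 of the 8 lay above the median range of all expressed genes, which 50.0% of those genes do by definition. Of the 8, 5 had a range above the median disagreement between probe sets, and 2 above its upper quartile. Those 2, Gad2 and Lhx6, were among the dimmest expressed genes, whose median range was 0.62. The share of all expressed genes past these marks was not counted, so neither count is shown to be particular to the 8. These counts also set the range of 1 probe set beside a difference of 2, so they are a rough guide only.

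**Figure D1:**
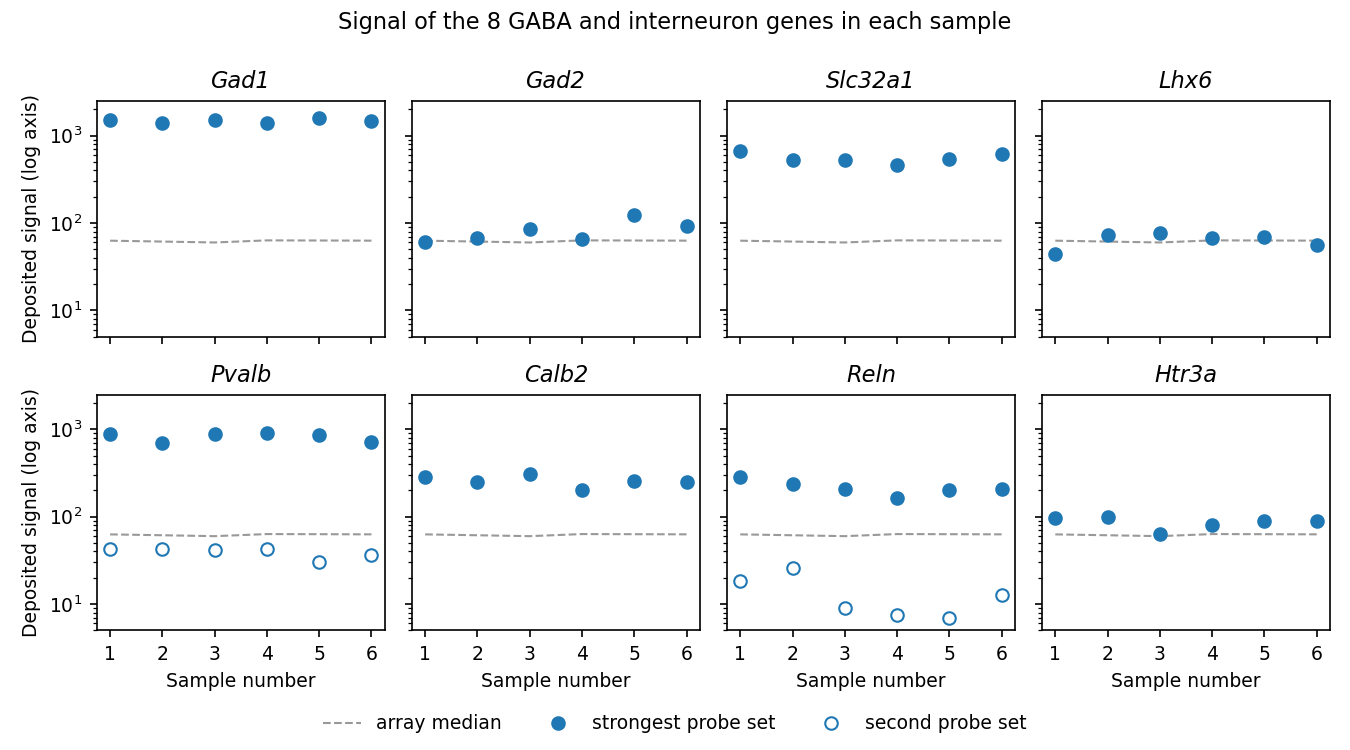
Deposited signal (log axis) of the 8 genes against sample number, 1 panel per gene. Filled points are the strongest probe set, open points the second probe set of Pvalb and Reln, and the dashed line is the array median. Gad1 stays between 1395 and 1581, Gad2 and Lhx6 lie close to the array median, and both open series lie under it.

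Gad1 was the steadiest of the 8. Its signals were 1519.9, 1414, 1529, 1395, 1581 and 1471 in samples 1 to 6. The samples lay close together, with sample 4 lowest. The highest was sample 5 in deposited signals and sample 3 after scaling. The range was 1.16-fold, and 10.7% of all expressed genes had a smaller one. Bright genes varied less than dim ones on these arrays, so each range was also set against the genes of like level, taken as 10 equal bins of the expressed genes by mean level. In the bin that holds Gad1 the median range was 0.28, above the 0.21 of Gad1.

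Gad2, whose enzyme sits mainly at synaptic terminals, varied most. From sample 1 to sample 6 the signals read 61.0, 68.1, 85.8, 66.1, 124 and 93.4. Sample 5 stood highest, samples 1, 2 and 4 lay near the array median, and sample 1 was just under it. The range was 2.03-fold, and 1.97-fold once sample 1 was raised to the array median. In the lowest bin of expressed genes by level, where Gad2 and Lhx6 lie, the median range was 0.62 and 15.9% of genes had a range over 1. Of that bin, 84.7% had a smaller range than Gad2. The range of Gad2 on the log2 scale was 1.02 with all samples, 0.61 without sample 5 and 0.92 without sample 1.

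The profiles of the 2 decarboxylase genes over the 6 samples gave a Pearson r of 0.59 (exact two-sided permutation p = 0.23) and a Spearman rho of 0.43 (exact permutation p = 0.42). Adjusted by Benjamini-Hochberg over the 4837 expressed genes set against Gad1, the permutation p was 0.95. Without samples 3 and 4, the farthest from the median of Gad1, r was 0.53. A relation between them was therefore not detectable with 6 arrays.

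Slc32a1, the vesicular transporter, had signals of 667, 524, 533, 463, 548 and 613 in samples 1 to 6. Sample 1 was highest and sample 4 lowest, both before and after scaling. Its range was 0.54 on the log2 scale, against a median of 0.33 in its bin by level, and 84.1% of that bin had a smaller range. Without sample 4 the range was 0.32. Against Gad2 its Pearson r was 0.00 (exact permutation p = 1.0, rho of -0.03), and against Gad1 it was 0.48 (exact permutation p = 0.33, rho of 0.54). The first became 0.88 without samples 5 and 1, the farthest from the median of Gad2. The second became 0.04 without samples 4 and 3, the farthest from that of Gad1. Leaving samples out in this way shrinks the spread of the decarboxylase gene, so neither value is settled by these arrays. The highest sample was 5 for Gad2, 1 for Slc32a1, and 5 or 3 for Gad1, before or after scaling. The range of Slc32a1 was under the median disagreement between probe sets of 0.56, so its peak is not shown to differ from theirs.

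Lhx6, a homeodomain factor needed for the migration and fate of parvalbumin and somatostatin cells, was dim. Its signals were 44.1, 73.4, 76.1, 66.6, 68.4 and 55.7 in samples 1 to 6. Samples 1 and 6 fell under the array median, where no signal above background has been shown. The range was 1.81-fold as measured and 1.27-fold with those values counted at the array median. Without sample 1 the range was 0.52 on the log2 scale, against 0.86 with it.

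Pvalb, the slow calcium buffer of fast-spiking cells, was measured by 2 probe sets drawn from the same sequence record. The stronger had signals of 875, 695, 886, 911, 856 and 719.96 in samples 1 to 6. Samples 2 and 6 were low, and the other 4 samples lay within a narrow band. The highest sample was 4 in deposited signals and 3 after scaling. The range was 0.38, against a median of 0.28 in its bin. The second probe set had signals between 30.0 and 42.8, under the array median in 6 of 6 samples, and was lowest in sample 5. Its next lowest value was in sample 6 (36.3), and sample 2 was its highest, but at such low signals its order says little. The name of the stronger set marks it as holding fewer probes than usual, and that of the weaker as sharing probes within a sequence family.

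Calb2, a calcium-binding protein of the same EF-hand type, had signals of 282, 252, 308, 200.5, 254 and 247 in samples 1 to 6. Sample 3 was highest and sample 4 lowest, before and after scaling, and the other 4 samples lay between. The range was 0.70, or 1.62-fold, and 92.1% of the genes in its bin by level had a smaller one. Without sample 4, its lowest, the range was 0.39, against a median of 0.35 for that bin over all 6 samples.

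Reln, the secreted glycoprotein that guides layering in development and is made in the adult hippocampus by interneurons and remaining Cajal-Retzius cells, had signals of 284, 239, 207, 163, 201 and 206. Sample 1 was highest, sample 2 next and sample 4 lowest. The range was 0.81, or 1.75-fold, and 94.2% of the genes in its bin had a smaller one, the highest such share of the 8 genes. Without sample 4 the range was 0.50, against a bin median of 0.39 over all 6 samples. The second Reln probe set, whose name marks it as built under relaxed probe rules, had signals from 6.86 to 26.0, under the array median throughout. It was highest in samples 2 and 1, as the first probe set was in samples 1 and 2, but 3 of its values lay under the floor of 0.2 of the array median, so its order says little.

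Htr3a, the subunit needed to form the serotonin-gated channel, had signals of 96.3, 98.1, 63.6, 79.6, 90.0 and 90.2 in samples 1 to 6. Sample 3 was lowest, close to the array median, followed by sample 4, and the other 4 samples lay between 90.0 and 98.1. The range was 0.59, against a median of 0.52 in its bin, and 61.8% of that bin had a smaller one. Without sample 3 the range was 0.35.

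**Figure D2:**
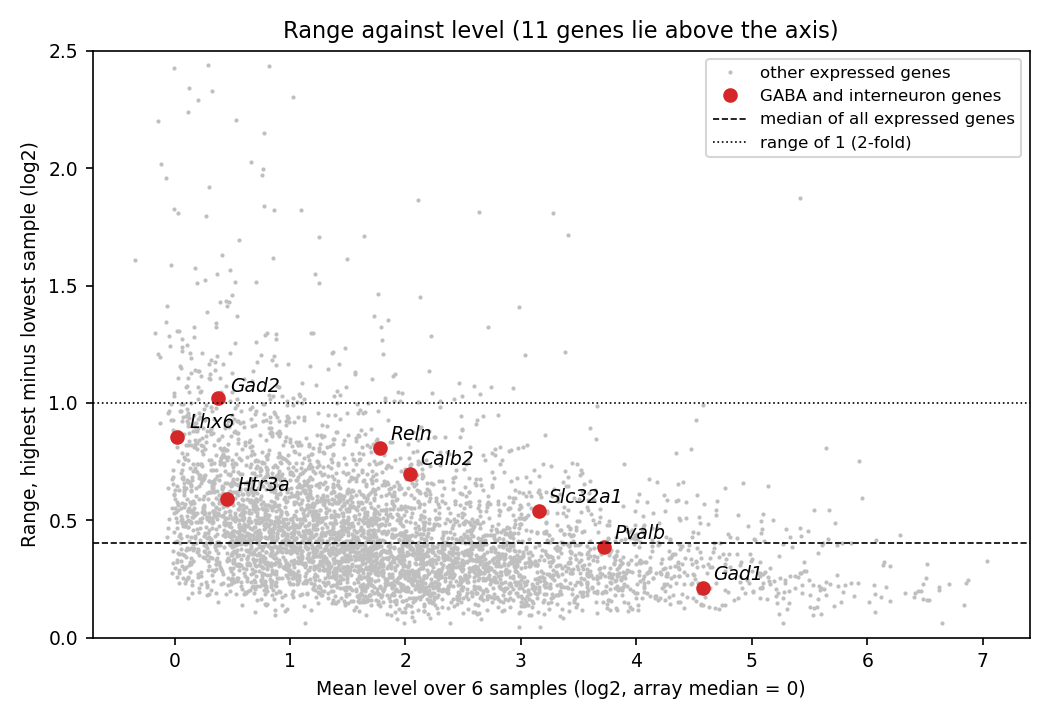
Range (highest minus lowest sample, log2) against mean level (log2, array median at 0) for the 4838 expressed genes, with the 8 genes in red; 11 genes lie above the axis. Gad1 lies under the dashed median range of 0.40 and Gad2 just over the dotted line at 1, among dim genes whose ranges are wide in general.

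The samples did not order the 8 genes in 1 way. After scaling, 4 of them were highest in sample 3 (Gad1, Lhx6, Pvalb and Calb2), 2 in sample 1 (Slc32a1 and Reln), 1 in sample 2 (Htr3a) and 1 in sample 5 (Gad2). Of all expressed genes 31.1% were highest in sample 3 after scaling, so the 4 of 8 (50.0%) is read against a background that already favours that array. In deposited signals 2 of the 8 were highest there, Lhx6 and Calb2, against 19.1% of all expressed genes, and quantile normalization also left 2. Sample 3 had the lowest array median and the highest ratio of 3' to 5' signal for the transferrin receptor (3.47, against 2.54 to 3.02 in the other samples) and pyruvate carboxylase (3.56, against 1.57 to 2.61), control transcripts whose ratio can rise when RNA is shorter. The same ratio for actin and Gapdh did not single out sample 3 (1.21 and 0.820) and was highest in sample 1 (1.27 and 0.860). The part of RNA length in the order of the samples was not tested. Htr3a went the other way and was lowest in sample 3.

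Sample 4 was the lowest for 4 of the 8 genes, Gad1, Slc32a1, Calb2 and Reln. The same count was found in deposited signals, and 20.7% of all expressed genes were lowest there after scaling (17.4% in deposited signals). Pvalb was the 1 gene of the 8 above its own median in that sample. The median deviation of the 8 genes from their own medians was -0.23 in sample 4 and 0.10 in sample 3, and lay between -0.03 and 0.06 in the other 4 samples. Deviations were not taken over all expressed genes, so these values are not shown to be particular to the 8. Samples 3 and 4 were singled out after the values were seen, so the counts are descriptions.

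**Figure D3:**
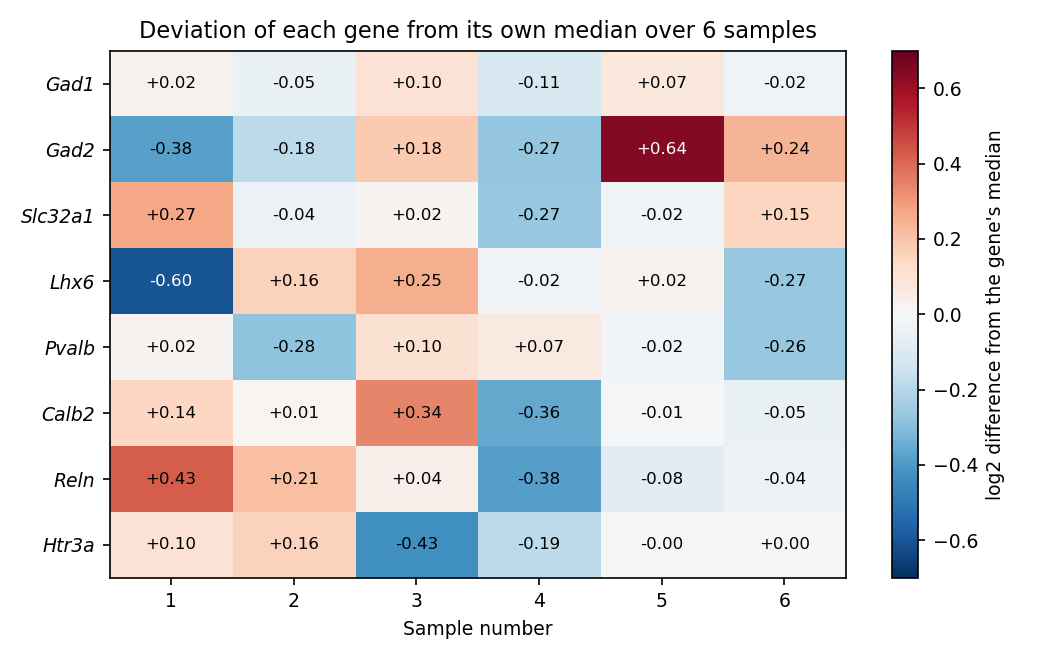
Log2 difference of each of the 8 genes (rows, strongest probe set) from its own median in each of the 6 samples (columns), after scaling. Column 4 is below 0 for 7 genes, though only at -0.02 for Lhx6. Gad2 reaches +0.64 in sample 5 and Lhx6 is at -0.60 in sample 1.

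The 8 genes gave 28 pairs. Pearson r over the 6 samples was above 0 in 17 pairs and below 0 in 11, with a median of 0.10. The highest value was for Gad1 and Calb2, r = 0.84 and rho = 0.71 (exact two-sided permutation p = 0.036 and 0.14), the 1 pair of the 28 with an unadjusted permutation p for r under 0.05. Adjusted over all expressed genes set against Gad1, its permutation p was 0.93, and r was 0.17 without samples 4 and 3. Those are the samples farthest from the median of Gad1, and for each pair below the gene named first set the samples left out. Leaving them out shrinks the spread of Gad1, so the fall in r cannot show that the relation rested on them. Slc32a1 and Reln followed with r = 0.80 and rho = 0.60 (exact permutation p = 0.061 and 0.24, 0.89 after adjustment). Here r turned to -0.49 without samples 1 and 4, where both genes were highest and lowest. For the same reason this turn cannot show that the relation rested on those samples. Calb2 and Reln had r = 0.68 and rho = 0.77 (exact permutation p = 0.11 and 0.10, 0.57 after adjustment), and r was 0.93 without samples 4 and 3. The lowest value was for Pvalb and Htr3a, with r = -0.68 and rho = -0.83 (exact permutation p = 0.10 and 0.058, 1.0 after adjustment), and r was -0.87 without samples 2 and 6. No pair had an adjusted permutation p under 0.57. With 720 orderings no permutation p can fall under 0.0014. Over 4837 genes this adjustment could therefore be passed only if many genes had very small p, so it cannot decide on single pairs.

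For each gene the 3 expressed genes with the highest Pearson r over the 6 samples were found. For Gad1 these were Sgcb (r = 0.98), Asah1 (0.98) and Grk6 (0.98), and for Gad2 they were Irak1 (0.98), Fam216a (0.97) and Mmp14 (0.97). For Slc32a1 they were Tpm4, Arhgdib and Trappc5 (0.98 to 0.97), for Lhx6 Ykt6, Gphn and Rnf220 (all 0.98) and for Pvalb Gpn2, Coq3 and Tmem62 (0.98 to 0.96). For Calb2 they were Rusc1, Cyb5r3 and Slc25a17 (all 0.99), for Reln Mgp, Trp53-ps and Thap4 (all 0.99), and for Htr3a Gss, Hoxd8 and Map11 (0.997 to 0.987). None of the 24 was another of the 8 genes, which says little, since the 8 are very few among the genes searched. Between 23 (Gad2) and 132 (Calb2) of 4837 genes had r over 0.9. How many genes would pass that mark beside an unrelated profile was not counted, so these counts are descriptions. The smallest adjusted permutation p against any of the 8 genes was 0.35, for Calb2, so none of these likenesses passed adjustment. With 6 arrays the adjustment could hardly be passed, as for the pairs, so it does not decide on them.

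Related genes were taken from 5 lists, with 79 genes named, 51 measured and 27 expressed. Their ranges had a median of 0.57. A range over 1 was seen in 2 of the 27 (7.41%), against 4.13% of all expressed genes, and 12 (44.4%) were highest in sample 3 after scaling, against 31.1%. In deposited signals 5 (18.5%) were highest there, against 19.1%. In sample 4, 7 of the 27 (25.9%) were lowest, against 20.7%.

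Of the genes that supply, clear or transport GABA and its precursors, 4 of 7 measured were expressed, with a median range of 0.35. Slc6a13, a GABA transporter known from meninges, ran from 137 in sample 3 to 251 in sample 2. Glul, the glutamine synthetase of astrocytes, ran from 439 to 565, and Slc38a2, a glutamine carrier, from 179 to 228. Got2, the mitochondrial aspartate aminotransferase, ran from 397 in sample 4 to 499 in sample 1. None of the 4 was highest in sample 3, against 31.1% of all expressed genes after scaling, and with 4 genes such a count says little.

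Neuropeptides and other interneuron products had 9 expressed genes of 14 measured, with a median range of 0.49. On the scaled values sample 3 was the highest for 6 of the 9, against 31.1% of all expressed genes, and in deposited signals 3 were, against 19.1%. Sample 4 was the lowest for 4 of the 9 after scaling, against 20.7% of all expressed genes. The other genes of the list were lowest in samples 1, 2, 3 or 5. The inhibitory peptide somatostatin (Sst) marks cells of the Lhx6 lineage. Its signals were 1715, 1548, 1679, 1195, 1339 and 1566 in samples 1 to 6. Sample 4 was lowest, as it was for Gad1, Slc32a1, Calb2 and Reln. Cort, the related cortistatin, had deposited signals from 63.6 in sample 2 to 126 in sample 1, and after scaling a range of 0.97 between samples 4 and 1. Nos1, the neuronal nitric oxide synthase, ran from 69.8 in sample 3 to 118 in sample 5. Cplx1, a complexin of fast release, ran from 1011 in sample 4 to 1506 in sample 3. Vip, Tac1, Tac2, Pnoc and Th had medians under the array median.

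Of 12 transcription factors measured, 4 were expressed. The 4 Dlx genes, which act early in interneuron development, and Sox6, which acts downstream of Lhx6, had medians under the array median. Nr2f2, the COUP-TFII factor of cells from the caudal eminence, had a range of 1.03, from 73.6 in sample 4 to 142 in sample 3. Nr2f1 ran from 243 to 393, highest in sample 2. Satb1, which acts downstream of Lhx6, ran from 233 to 349, with samples 2 and 6 low. The stronger Pvalb probe set was also lowest in those samples, whereas Lhx6 was above its own median in sample 2 and below it in sample 6. A relation between these genes was not tested here. Maf ran from 71.4 in sample 3 to 104 in sample 2. The Nr2f2 probe set carries the same mark of relaxed probe rules as the second Reln set, as does that of Got2.

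Receptors, channels and surface proteins had 4 expressed genes of 11 measured, with a median range of 0.62. Sema3e, a semaphorin, ran from 150.3 in sample 3 to 283 in sample 5. Nxph1, a neurexin ligand of interneurons, ran from 104 to 159, lowest in sample 2 and highest in sample 3. Kit ran from 195 to 290.5 and Chrna7, the alpha 7 nicotinic receptor subunit, from 149 to 184. Erbb4, Kcnc1, Cnr1, Grin2d, Gria4, Tacr1 and Oprm1 had medians under the array median.

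At the inhibitory postsynapse and in the reelin pathway 6 of 7 measured genes were expressed. Slc12a5, the chloride extruder KCC2 that makes GABA hyperpolarising, had the widest range of the 27, 1.84, from 46.9 in sample 3 to 177 in sample 5 (3.58-fold, and 2.80-fold once sample 3 was raised to the array median). Gad2 was also highest in sample 5 but, unlike Slc12a5, was not low in sample 3. Slc12a2, the chloride importer NKCC1, ran from 322 in sample 1 to 559 in sample 4. Dab1, the adaptor that carries the reelin signal, ran from 136 in sample 3 to 218 in sample 5, whereas Reln was highest in sample 1 and lowest in sample 4. Gphn, the gephyrin scaffold, ran from 191 to 242.

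**Figure D4:**
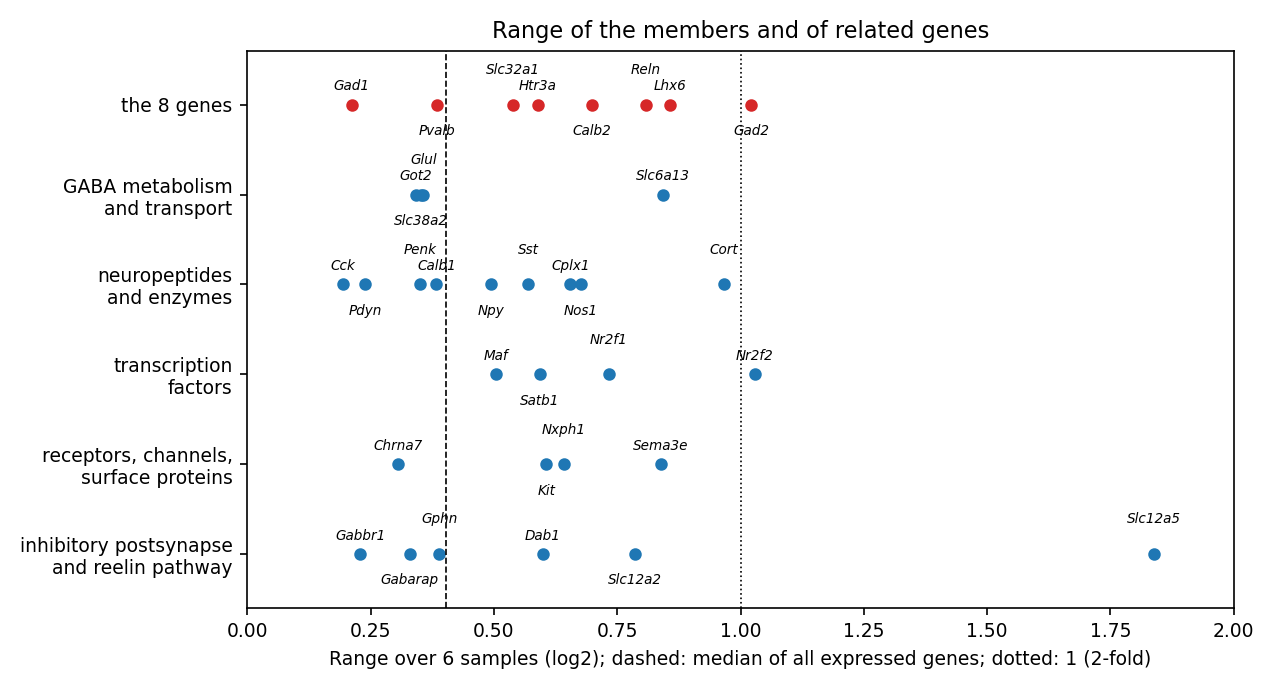
Range over the 6 samples (log2) of the 8 genes (red) and of the 27 expressed genes on 5 related lists (blue). The dashed line is the median range of all expressed genes, 0.40, and the dotted line is a range of 1. Gad2, Nr2f2 and Slc12a5 lie past the dotted line.

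Markers of other cells moved between the samples too. Whether fewer cells of a type or less RNA per cell lies behind a lower signal cannot be told apart in tissue RNA. The Cajal-Retzius list holds Reln and Calb2 themselves, and 4 of its 7 measured genes were expressed. Its other expressed genes were Tbr1, highest in sample 1 and lowest in sample 6, and Cxcl12, lowest in sample 4 and highest in sample 6. Lhx1, Lhx5 and Cxcr4 had medians under the array median. The summed scaled level of the 4 ran from 13.3 in sample 4 to 20.0 in sample 1. Glutamatergic markers (6 of 6 measured expressed) had a summed level from 36.9 in sample 3 to 59.4 in sample 5, although Neurod6 and Neurod2 were highest in sample 3 after scaling. Choroid plexus markers (3 of 6 measured expressed, with Kl, Aqp1 and Cldn2 under the array median) had a summed level of 3.68 in sample 1, against 29.0 in sample 4 and 35.4 in sample 6. Thalamus and habenula markers (5 of 8 measured expressed, Calb2 among them, with Rora, Gbx2 and Tac1 under the array median) ran from 14.0 in sample 1 to 18.9 in sample 3. Striatum and septum markers (3 of 5 measured expressed, with Drd2 and Rgs9 under the array median) ran from 9.67 to 11.7, astrocyte markers (7 of 7 measured expressed) from 91.0 to 99.3 and microglia markers (7 of 8 expressed) from 34.1 to 38.1. Each sum adds linear levels, so the brightest genes of a list weigh most and a narrow sum can hide wide single genes. Of the 7 expressed astrocyte genes 2 had a range over 1, against 4.13% of all expressed genes, and 0 of the 7 microglia genes had. The median range was 0.62 for the astrocyte genes and 0.30 for the microglia genes. The part of these cell types in the levels of the 8 genes was not tested.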

How the data were processed

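The deposited table gives, per probe set, a signal intensity on a linear scale for 6 arrays. How the authors made it (scanner, summary method, version) is not stated in any label or header; the mean between the 2nd and 98th percentile was 150.0 on each array. Names came from the array's platform annotation: 10833 probe sets had 1 symbol and were used, 396 had several and 1193 none. All 8 symbols matched the RefSeq gene table by gene identifier. Each array was divided by its median over probe sets that are not controls (66 were), floored at 0.2 of it and put on the log2 scale. Where a gene had several, the brightest on average stood for it. Correlations were tested by exact permutation over 720 orderings and adjusted by Benjamini-Hochberg over all expressed genes, in Python 3.11.15 with numpy 2.4.6 and pandas 2.3.3. The correlation step was tested on simulated data. Named genes were the 8 genes, up to 4 widest expressed genes per related list and the 3 nearest genes of each. The genes and lists were chosen with earlier results of these data known. Detection calls were not used here, so values under the array median are not shown to be above background, and 6 arrays limit the precision. No sequence is printed, since those of the probes were not used here.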

Additional observations from a re-analysis of the deposited data

How the results depend on the processing

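Scaling, probe set, floor, filter and each left-out sample were varied 1 at a time. The count of the 8 genes above the array median was 5 with the filter at the 75th percentile of the array; it was 7 with the mean of probe sets, and 8 in every setting that left out a sample. The count with a range over 1 was 0 once dim values were raised to the array median and 0 with the 75th percentile filter, and between 0 and 1 when a sample was left out (0 without sample 1 or sample 5). Of all expressed genes 2.57%, 1.73%, 3.10% and 3.60% had such a range in those 4 settings. The count highest in sample 3 was 2 with no scaling and 2 with quantile normalization, against 19.1% and 19.5% of all expressed genes. It was 3 with the 75th percentile filter (37.7%) and 4 without each other sample (33.7% to 37.1%). The median range of the 8 lay between 0.44 (without sample 4) and 0.64 over the left-out samples, against 0.36 to 0.38 for all expressed genes. The correlation of Gad1 and Gad2 lay between 0.43 and 0.78 over the left-out samples and kept an exact permutation p of 0.125 or more in all settings run. No paired analysis was possible because the labels put the samples in no group. The ranges of Slc32a1, Calb2 and Reln moved by over 1.5 times without sample 4. So did those of Gad2 without sample 5 (to 0.61), Lhx6 without sample 1 (to 0.52) and Htr3a without sample 3 (to 0.35). That of Lhx6 also moved so far, to 0.35, once dim values were raised to the array median. Signals near the array median limit Gad2, Lhx6 and Htr3a most.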
